A study of Bos taurus with 18 samples.

Results

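The 26S proteasome is the multi-subunit protease that degrades ubiquitin-tagged proteins, and its genes were read here in the granulosa and theca of bovine preovulatory follicles before and after the LH surge. The members were all genes whose symbol in the platform's annotation starts with PSMA, PSMB, PSMC, PSMD, PSME or PSMF, counting only probe sets with 1 symbol. The rule found 37 of the 9155 genes measured, on 43 of the 13292 probe sets with 1 symbol, and where a gene had several probe sets the brightest on average was taken. Of 44 genes in the classes used below, 36 were among the members. PSMA2, PSMA8, PSMB11, PSMD3, PSMD7, PSMD8, PSMD12 and PSME3 were not analysed here. The remaining member, PSME3IP1, carries the symbol of a protein that binds an activator and is not itself a subunit. The series asks whether the surge acts differently on granulosa and theca. Each of 6 cows gave a single dominant follicle: cows D, F and G before the surge (labelled pre GnRH), and cows A, B and C at 22 h after GnRH, the hormone that was given to induce it. From each follicle came membrane-associated granulosa, antral granulosa aspirated with the fluid, and theca, so that each of the 6 groups held 3 arrays from 3 cows. The labels give no breed or age.

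As background, the proteasome has a barrel-shaped core of stacked rings, in which the alpha subunits form the gate and the beta subunits the chamber where proteins are cut. A cap sits on the core: the ATPases of its base unfold the substrate, and its lid removes ubiquitin. PSMB5, PSMB6 and PSMB7 are the cutting subunits of the ordinary core. Immune cells and cells exposed to interferon use PSMB8, PSMB9 and PSMB10 in their place, which makes the immunoproteasome, known for cutting peptides for presentation on MHC class I. In the follicle, granulosa cells stop dividing and luteinize after the LH surge, while the theca holds steroid-making cells together with vessels and immune cells.

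Values are log2 signals, and a change of 1 is a 2-fold difference. A gene is called where its limma p, adjusted by Benjamini-Hochberg over 24016 probe sets, is under 0.05. Changes are given ± standard error (SE) with n = 3 cows a group, and the number of arrays limits their precision. LH changes compare different cows, whereas cell populations are compared within cows. The standard error pools the spread of the 6 groups. All 37 members lay above 4.62, the upper bound of the means of the 8005 dimmest probe sets, on all 18 arrays. On the third principal component of the arrays (6.3% of the variance) the 3 arrays of cow C stood apart, at 27.5 to 52.7 against -30.8 to 11.3 for the other 15, so results that change without that cow are given both ways. Marker signal was also present outside its own population. The summed signal of 10 granulosa markers was 88643 to 99839 in membrane granulosa before LH and still 30178 to 47334 in theca. That of 4 theca markers was 32083 to 35849 in theca before LH and 2085, 13158 and 18514 in membrane granulosa of cows F, G and D. The theca marker PTCH1 was below 4.62 in every group. In such bulk RNA, fewer cells of a type and less RNA per cell cannot be told apart.

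Most calls after LH were in antral granulosa, where 21 of the 37 members fell and 2 rose. Over all genes 16.1% were called lower and 12.6% higher in that comparison. The median change was -0.50 for the members and -0.03 for all genes. In membrane granulosa 5 members fell and 3 rose, against 12.9% and 13.1% of all genes, with medians of -0.10 and -0.03. In theca 3 members fell and 0 rose, against 2.85% and 2.34% of all genes, with medians of -0.14 and -0.01. At an unadjusted p under 0.05, 6 of the 37 members were lower in theca and 0 higher, against 10.5% and 8.29% of all genes. Arrays after LH all lay below those before for 26 members in antral granulosa, 9 in membrane granulosa and 9 in theca. Over all genes that held for 24.3%, 20% and 12.3%. Called lower were thus 56.8% of the members in antral granulosa, 13.5% in membrane granulosa and 8.11% in theca.

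**Figure D1:**
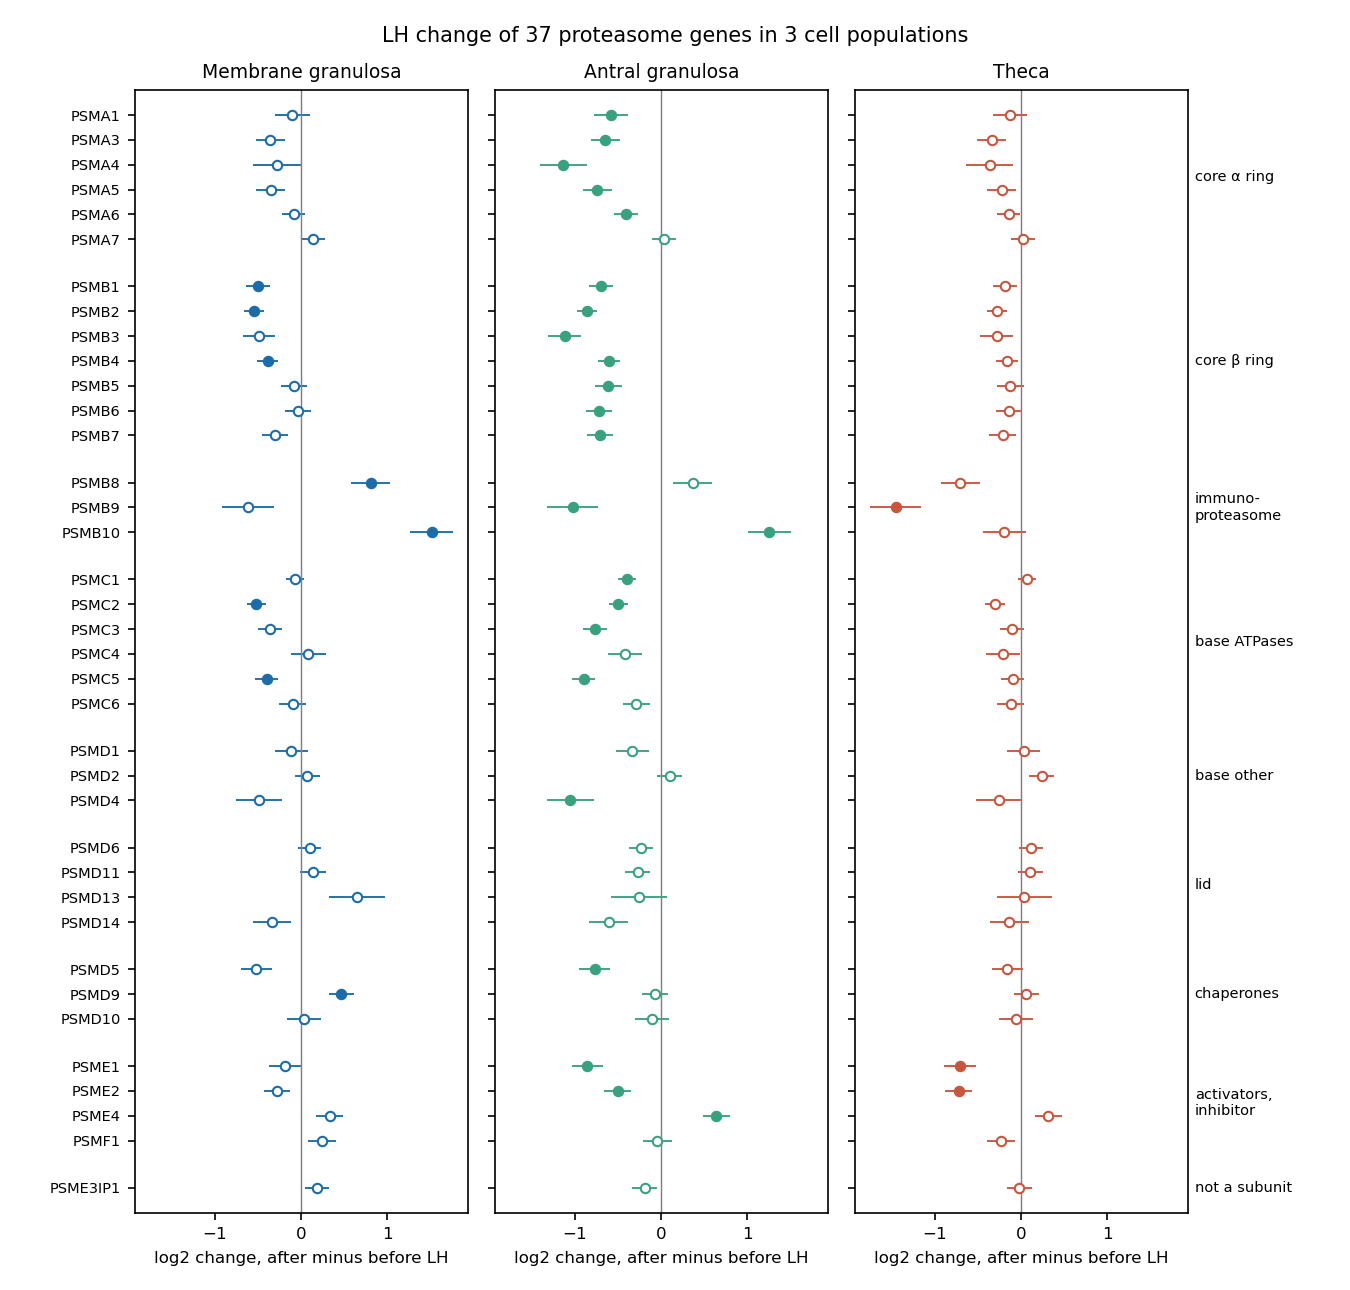
Log2 change after minus before LH of each of the 37 genes (points, with SE bars, n = 3 cows a group) in membrane granulosa, antral granulosa and theca, grouped by class, with filled points for called genes. In antral granulosa 12 of 13 core genes lie to the left of 0 as filled points, while PSMB10 stands at 1.51 and 1.26 in the granulosa populations and at -0.20 in theca.

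Core genes made up 12 of the 21 antral falls, in a comparison where 16.1% of all genes were called lower. All 7 measured beta subunits and 5 of 6 alpha subunits fell, with a median change of -0.70 over the 13 core genes, and their called adjusted p values (limma) ran from 5.8e-05 to 0.0453. PSMB3, a structural beta subunit, read 11.74, 11.79 and 11.65 in cows D, F and G before LH and 10.56, 10.42 and 10.86 in cows A, B and C after it. All 3 arrays after LH lay at least as low as 10.86, below every array before. Its change was -1.12 ± 0.19, 2.17-fold lower, with an adjusted p of 0.000398 in limma. PSMB2, another structural beta subunit, read 11.71, 11.62 and 11.65 before and 10.76, 10.64 and 10.99 after. Its groups were as tight, and it fell by 0.86 ± 0.12 with the smallest adjusted p among the members, 5.8e-05 (limma). PSMA4, an alpha-ring subunit, had the largest fall. It read 11.07, 11.45 and 11.10 before and 9.87, 10.06 and 10.28 after, a change of -1.13 ± 0.27 (adjusted p 0.0065, limma). Its call was lost without cow A, where the adjusted p was 0.0526.

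The cutting subunits of the ordinary core fell in antral granulosa as well. PSMB5, which carries the chymotrypsin-like activity, read 12.03, 11.98 and 12.08 before LH and 11.36, 11.30 and 11.60 after. PSMB6, the caspase-like subunit, read 11.34, 11.44 and 11.41 before and 10.59, 10.74 and 10.70 after. PSMB7, the trypsin-like subunit, read 11.65, 11.58 and 11.54 before and 10.86, 10.81 and 10.98 after. In each of these 3 genes the groups did not overlap, and the arrays before LH lay within 0.11 of each other. The changes were -0.61 ± 0.15, -0.72 ± 0.15 and -0.71 ± 0.15, with adjusted p values of 0.0086, 0.00263 and 0.00315 (limma). PSMA7, which forms part of the alpha ring, was the exception. It read 12.86, 13.04 and 13.29 before and 13.18, 13.09 and 13.04 after, a change of 0.04 ± 0.14 with a 95% interval from -0.26 to 0.34, and its groups overlapped.

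Among the remaining core genes in antral granulosa, PSMA5 changed by -0.74, PSMB1 by -0.70, PSMA3 by -0.64, PSMB4 by -0.60, PSMA1 by -0.58 and PSMA6 by -0.41, and all 6 were called. PSMA5, PSMB1, PSMB2, PSMB3, PSMB4, PSMB6 and PSMB7 were called with any 1 cow left out. PSMA1 kept its call only without cow G (adjusted p 0.0536 to 0.175 without the others), and lost it with the cow as a random block (0.0508) or the replicate number as a block (0.0581). PSMA6 lost it without any 1 cow (0.062 to 0.142). PSMB5 lost its call without cow A (0.0532) or cow B (0.0613), and so did PSMA3 (0.0675 and 0.0737). The count of members called lower was 14 without cow A, 15 without cow B, 20 without cow C and 17 without D, F or G. Over all probe sets, calls either way numbered 5391 with all cows. Without A, B, C, D, F and G they numbered 3932, 4300, 5791, 4276, 4274 and 4287.

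Markers of other cells and a reading of RNA quality are given beside this fall. Of 6 fibroblast markers 3 rose in antral granulosa after LH and 0 fell: the collagen genes COL3A1 (3.43 ± 0.80, adjusted p 0.00526, limma) and COL1A2 (2.67 ± 0.64, 0.0059), and DCN (1.61 ± 0.55, 0.0462), a matrix proteoglycan. Their summed signal was 403.3 to 489.3 before LH, with COL3A1 below 4.62, and 693.2 to 3007 after. Of 7 smooth muscle and pericyte markers ACTA2 (1.87 ± 0.61, 0.0389) and TAGLN (1.5 ± 0.51, 0.0478) rose there and 0 fell, with sums of 296.2 to 339.6 before and 309.8 to 533.9 after. ACTA2, TAGLN, RGS5 and PDGFRB were below 4.62 in antral granulosa before LH, so both rises started from dim values. In membrane granulosa 0 of either list were called. Of 3 red cell markers 0 were called in any population, and HBA and ALAS2 were below 4.62 in every group. Leukocyte and endothelial markers had 0 calls in antral granulosa. Over all genes 12.6% were called higher there and 16.1% lower. The GAPD control probe sets at the 3' and 5' ends of the transcript differed by 0.123, 0.467 and 0.259 in antral granulosa of cows D, F and G and by 0.866, 0.643 and 0.459 in cows A, B and C, on the log2 scale. A larger 3' excess is a common sign of less intact RNA, and here the groups overlapped only by cows F and C. For actin the range was 1.15 to 2.26 before and 1.59 to 1.82 after, with overlap. For the EF1A control the difference was -2.72 to -1.72 before and lower, -2.86 to -2.55, after, also with overlap. The part of these differences in the core changes was not tested.

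In membrane granulosa 3 of the 13 core genes fell, against 12.9% of all genes called lower. PSMB2 read 11.26, 11.60 and 11.33 in cows D, F and G and 10.80, 10.78 and 10.98 in cows A, B and C, a change of -0.54 ± 0.12 (adjusted p 0.00347, limma) that was called with any 1 cow left out. A second probe set of PSMB2 read -0.44 ± 0.16 there, with an adjusted p of 0.0693. PSMB1 changed by -0.50 ± 0.14 and PSMB4 by -0.39 ± 0.12, with adjusted p values of 0.0174 and 0.036 (limma). PSMB1 lost its call without cow A, B, D or F, and PSMB4 without any 1 cow but G. Cows differed in membrane granulosa before LH. Cow F had the highest value of the 3 in 13 of 13 core genes and 13 of 13 cap genes, and cow G the lowest in 12 core genes. PSMB5 there read 11.94 in cow D, 12.07 in cow F and 11.40 in cow G, a range that took in all 3 arrays after LH (11.80, 11.65 and 11.71). Cow F also had the lowest theca marker signal of these arrays, 2085 against 13158 and 18514, and its GAPD 3' excess was the lowest of the 3, at 0.302 against 0.667 in cow D and 0.857 in cow G. The order of the core levels, F above D above G, was the reverse of that of the GAPD excess, but not of that of actin or EF1A. For actin cow F had the highest, 1.88 against 1.39 and 1.41. For EF1A cows D, F and G had -2.48, -2.34 and -1.78, all above the -2.89 to -2.55 of membrane granulosa after LH. The part of these differences in the result was not tested. Over all 37 members, without cow F 5 were higher and 2 lower. Without cow A 2 were lower, without B 1 higher and 2 lower, without D 2 lower, and without C or G 1 higher. Over all probe sets, calls either way numbered 5041 with all cows. Without A, B, C, D, F and G they numbered 3387, 4177, 5405, 4060, 4412 and 3616.

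In theca 0 of 13 core genes were called, against 2.85% of all genes called lower and 2.34% higher. For 4 of the 13 all arrays after LH lay below those before, which held for 12.3% of all genes. The changes of the 13 core genes ran from -0.36 to 0.03 with a median of -0.18, and 12 of 13 were below 0. PSMB3 read 11.37, 11.21 and 11.12 before LH and 10.72, 11.00 and 11.15 after, a change of -0.28 with an overlap between the groups. Here cow D was highest in 12 of 13 core genes before LH and cow C in 11 of 13 after it.

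**Figure D2:**
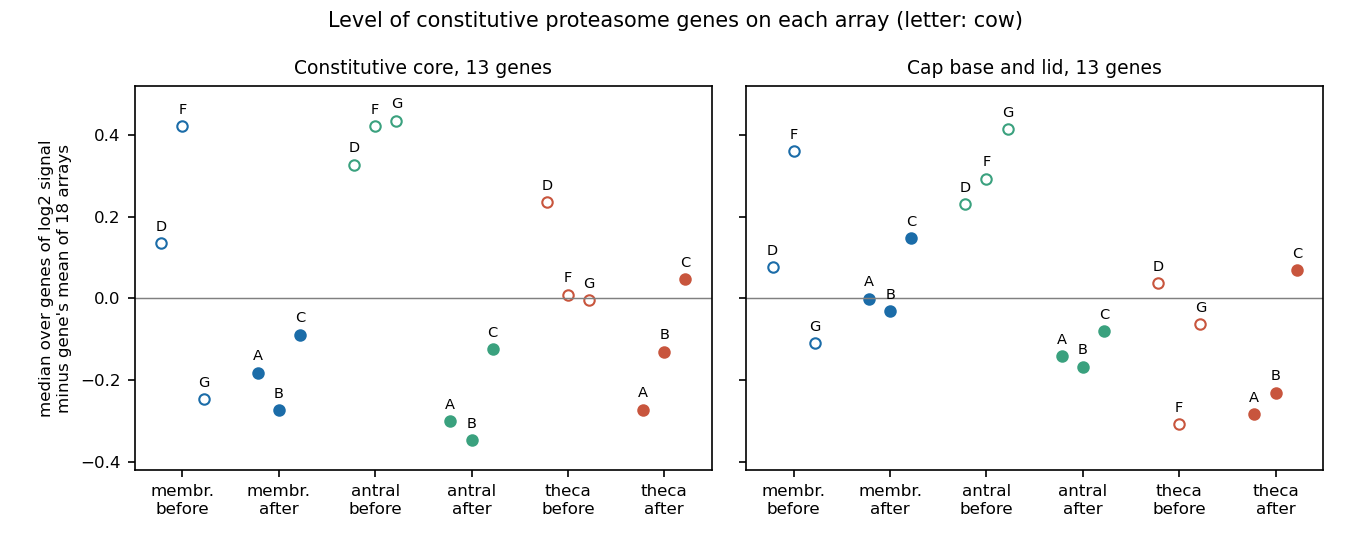
Median over 13 core genes (left) and 13 cap genes (right) of each array's log2 signal minus the gene's mean over the 18 arrays, with open points before and filled points after LH and letters for cows. The antral core arrays before LH lie at 0.33 to 0.44 and those after at -0.35 to -0.12, whereas the membrane granulosa arrays before LH spread from -0.25 to 0.42.

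The 3 populations came from the same cows, so their LH changes are set side by side and the difference is tested within cows. The 5 members that fell in membrane granulosa (PSMB1, PSMB2, PSMB4, PSMC2 and PSMC5) all fell in antral granulosa too, where they were 5 of 21. The antral change was the more negative one in 34 of 37 genes, which were read on the same arrays and are not separate observations. The same count was not made over all genes. The median difference, antral minus membrane, was -0.33 for the members and -0.03 for all genes. No difference between the antral and the membrane change was called, in the members or in any probe set (0% of genes either way), and the smallest adjusted p over all probe sets was 0.0503. At an unadjusted p under 0.05, 2236 probe sets and 9 members passed, and all 9 were more negative in antral granulosa, the direction of 7.42% of all genes at that p. They were PSMB3, PSMB5, PSMB6, PSMA4, PSMC4, PSMC5, PSMD4, PSMD9 and PSME1. For PSMB6 the difference was -0.68 ± 0.21, with a 95% interval from -1.13 to -0.23 and an adjusted p of 0.427 (limma). Between theca and antral granulosa, 5 members had a change that was less negative in theca and 2 one that was more negative, against 8.04% and 6.98% of all genes. The 5 were PSMB3, PSMC5, PSMD4, PSMD5 and PSMB2, with differences of 0.84 ± 0.21, 0.80 ± 0.21, 0.80 ± 0.23, 0.61 ± 0.17 and 0.58 ± 0.17. Members called in that direction numbered 0 without cow A, B or C, 3 without D, 2 without F and 1 without G. With the cow left out of the model as a block, 1 was called. Over all probe sets, calls either way numbered 2698 with all cows. They numbered 1815, 1753, 2401, 2311, 2102 and 1971 without A, B, C, D, F and G, and 1485 without the block.

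Part of the cap also fell. In antral granulosa 5 of its 13 measured base and lid genes fell, against 16.1% of all genes called lower. They were the base ATPases PSMC5, PSMC3, PSMC2 and PSMC1, and the ubiquitin receptor PSMD4. PSMC5 read 10.01, 9.70 and 10.23 before LH and 9.09, 9.01 and 9.14 after. The 3 arrays after LH were within 0.13 of each other and below all arrays before, a change of -0.90 ± 0.13 (adjusted p 0.000133, limma). A second, dimmer probe set of PSMC5 did not show it: its antral change was -0.15 ± 0.23 (adjusted p 0.714), and its membrane change was -0.75 ± 0.23 (0.0264). PSMD4 read 9.84, 10.75 and 10.83 before and 9.65, 9.59 and 9.03 after. Cow D was low before LH and cow C lowest after it, yet the groups did not overlap. Its change was -1.05 ± 0.27 (adjusted p 0.01, limma), and its second probe set gave -1.03 ± 0.28 (0.0152). Without cow G the adjusted p was 0.0762. PSMC3 fell by 0.76 ± 0.14, PSMC2 by 0.49 ± 0.11 and PSMC1 by 0.40 ± 0.11. The call of PSMC1 was lost without cow B (0.0774) or cow G (0.0551).

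No lid gene was called in any population. Over all genes 16.1% were called lower and 12.6% higher in antral granulosa, 12.9% and 13.1% in membrane granulosa, and 2.85% and 2.34% in theca. The 4 lid genes measured had changes of -0.61 (PSMD14, the deubiquitinase), -0.26 (PSMD11), -0.26 (PSMD13) and -0.23 (PSMD6) in antral granulosa. PSMD14 had the smallest adjusted p, 0.0677 (limma). A second, dimmer probe set of PSMD6 gave 0.32 ± 0.34 there (adjusted p 0.581, limma), against the sign of the first. PSMD13 read 8.21, 8.58 and 6.74 in membrane granulosa before LH, so that cow G alone lay far below the other 2, and 8.64, 8.45 and 8.37 after. PSMD2, the large scaffold of the base, had changes of 0.07, 0.10 and 0.24 in membrane granulosa, antral granulosa and theca. In membrane granulosa PSMC2 fell by 0.52 ± 0.11 (adjusted p 0.00372, limma) and PSMC5 by 0.40 ± 0.13 (0.0472). The PSMC2 change was called with any 1 cow left out. The PSMC5 call was lost without any 1 cow but G, with the replicate number as a block (0.0576) and with the cow as a random block (0.0614). In theca 0 of 13 cap genes were called, against 2.85% of all genes called lower and 2.34% higher. The changes of these cap genes ran from -0.30 to 0.24.

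The 3 chaperones that help to assemble the cap did not move alike. PSMD5 read 10.28, 10.30 and 10.48 in antral granulosa before LH and 9.32, 9.59 and 9.84 after, without overlap, and fell by 0.77 ± 0.18 (adjusted p 0.00522, limma). In membrane granulosa its change was -0.52 ± 0.18 with an adjusted p of 0.052. PSMD9 rose in membrane granulosa, from 8.44, 8.67 and 8.04 to 9.07, 8.72 and 8.76, by 0.46 ± 0.15 (0.0333). The highest array before and the lowest after differed by only 0.05, and the call was lost without any 1 cow but F (adjusted p 0.0515 to 0.219). PSMD10 had changes of 0.04, -0.11 and -0.06 in the 3 populations and was not called.

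The immunoproteasome subunits went in different directions. PSMB10 rose in both granulosa populations and was not called in theca, PSMB8 rose in membrane granulosa, and PSMB9 fell in antral granulosa and theca. PSMB10, which takes the place of PSMB7, read 7.14, 7.48 and 7.05 in membrane granulosa before LH and 8.51, 8.63 and 9.07 after. Every array after LH lay over 1 unit above every array before. The change was 1.51 ± 0.25, 2.85-fold higher, with an adjusted p of 0.000371 (limma). In antral granulosa it read 7.85, 7.93 and 7.07 before and 8.73, 8.65 and 9.25 after, a rise of 1.26 ± 0.25 (0.00158), again with no overlap. In theca it stood at 9.06, 9.85 and 9.40 before and 9.09, 9.29 and 9.33 after, with overlap, and the change was -0.20 ± 0.25 (95% interval -0.73 to 0.34). Both rises were called with any 1 cow left out.

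PSMB8, which takes the place of PSMB5, read 5.93, 5.63 and 5.17 in membrane granulosa before LH and 6.12, 6.64 and 6.39 after. The groups did not overlap, and the rise was 0.80 ± 0.23 (adjusted p 0.0179, limma). The call was lost without cow B (0.11), C (0.0504) or G (0.118). In antral granulosa it read 6.09, 5.21 and 5.26 before and 6.03, 5.79 and 5.85 after. Cow D was the high array before LH, and the change of 0.37 ± 0.23 was not called; without cow D it was 0.66 with an adjusted p of 0.0255. The same antral array of cow D held the highest leukocyte marker signal of the granulosa arrays, 3238 against 769 to 2089 on the others. PSMB9 and PSMB10 of antral granulosa before LH were highest in cow F instead. The part of leukocytes in these values was not tested. In theca PSMB8 read 8.27, 8.24 and 8.36 before and 7.77, 7.58 and 7.41 after. These groups did not overlap either, and the change of -0.70 ± 0.23 had an adjusted p of 0.109.

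PSMB9, which takes the place of PSMB6, fell in theca. It read 11.82, 11.39 and 11.26 before LH and 10.04, 10.21 and 9.87 after, a gap of over 1 unit between the groups. The fall was 1.45 ± 0.30, 2.73-fold, with an adjusted p of 0.011 (limma), and the call was lost without cow D (0.0916) or cow F (0.055). In antral granulosa PSMB9 read 8.73, 8.88 and 8.64 before and 7.47, 7.41 and 8.29 after, with cow C above the other 2 after LH. It fell by 1.03 ± 0.30 (0.0208), and the call held without cow C and was lost without any other 1 cow (0.0508 to 0.115). In membrane granulosa it read 9.31, 9.00 and 8.64 before and 7.79, 8.18 and 9.12 after, where cow C overlapped the arrays before LH. The change of -0.62 ± 0.30 was not called; without cow C the adjusted p was 0.00359.

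**Figure D3:**
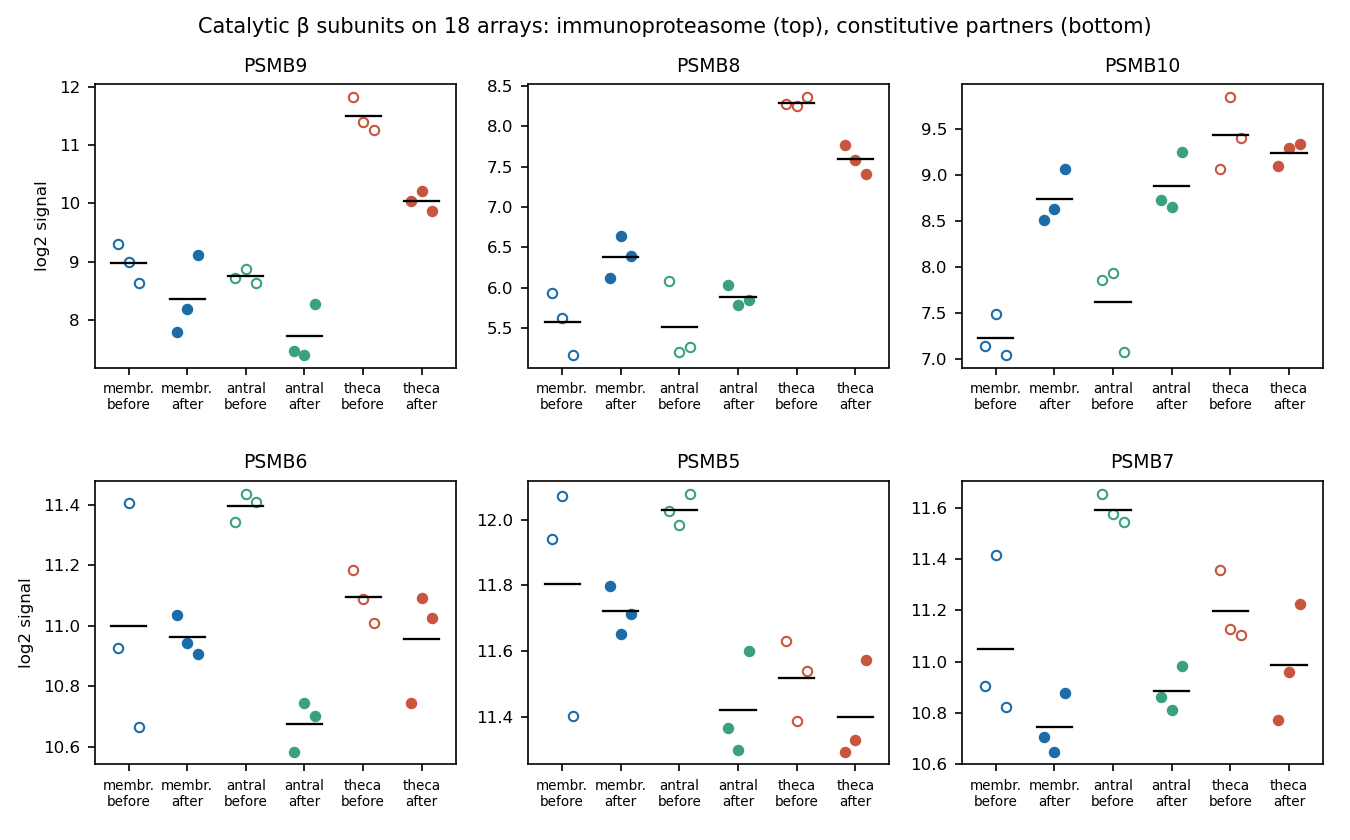
Log2 signal on each of the 18 arrays (points: open before LH, filled after; within a group from left to right in alphabetical order of cows; bars: group means of n = 3) of the immunoproteasome subunits PSMB9, PSMB8 and PSMB10 above their constitutive counterparts PSMB6, PSMB5 and PSMB7. The top panels show theca above granulosa before LH, PSMB10 of granulosa close to theca after it, and PSMB9 of theca lower after LH; each panel has its own scale.

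The LH change differed between theca and granulosa for PSMB10 and PSMB8. Between theca and membrane granulosa the difference was -1.71 ± 0.25 for PSMB10 (adjusted p 0.00121) and -1.51 ± 0.28 for PSMB8 (0.00521), and both were called with any 1 cow left out. These were the only members called in that comparison, with 0 higher and 2 lower against 5.66% and 5.96% of all genes. Between theca and antral granulosa the differences were -1.45 ± 0.25 for PSMB10 (0.0022) and -1.07 ± 0.28 for PSMB8 (0.0264). The PSMB10 difference was called with any 1 cow left out, while that of PSMB8 was called only without cow D (0.0555 to 0.104 without the others) and had an adjusted p of 0.0613 without the cow as a block. For PSMB9 the difference between theca and membrane granulosa was -0.83 ± 0.34 (95% interval -1.57 to -0.09), with an adjusted p of 0.167.

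Set against its constitutive counterpart on the same array, the immunoproteasome subunits gave different shifts. The log2 difference of PSMB10 to PSMB7 was higher after LH than before by 1.82 (SE 0.12) in membrane granulosa and 1.96 (SE 0.29) in antral granulosa, without overlap, and by 0.02 (SE 0.30) in theca, with overlap. That of PSMB8 to PSMB5 shifted by 0.89 (SE 0.23) and 0.98 (SE 0.31) in the granulosa populations and by -0.58 (SE 0.20) in theca, again with no overlap in any of the 3. For PSMB9 to PSMB6 the shift was -0.58 (SE 0.48) and -0.31 (SE 0.28) in granulosa, with overlap, and -1.31 (SE 0.18) in theca without it. These shifts compare 3 cows before with 3 others after and were not tested.

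The activators, which open the core without the ATPase cap, included the interferon-inducible pair PSME1 and PSME2. Both fell in antral granulosa and theca. PSME1 read 10.84, 10.84 and 10.49 in antral granulosa before LH and 9.68, 9.96 and 9.97 after. The groups lay over 0.5 apart, and it fell by 0.85 ± 0.18 (adjusted p 0.00304, limma). In theca it read 11.43, 11.70 and 11.54 before and 10.95, 10.99 and 10.61 after, a fall of 0.71 ± 0.18 (0.0438). PSME2 read 10.41, 10.23 and 10.28 in theca before and 9.56, 9.72 and 9.48 after, a fall of 0.72 ± 0.15 (0.013). All of these groups stood apart. In antral granulosa PSME2 fell by 0.50 ± 0.15 (0.0258). In membrane granulosa PSME1 had a change of -0.19 ± 0.18 and PSME2 one of -0.28 ± 0.15, and neither was called. The theca call of PSME1 was lost without any 1 cow (0.0533 to 0.17), that of PSME2 without cow C (0.0634) or D (0.1), and the antral call of PSME2 without A, C, D or F (0.0766 to 0.124). Members called lower in theca were thus 0 without cow D, 1 without C or F, and 2 without A, B or G. Over all probe sets, calls either way in theca numbered 941 with all cows. Without A, B, C, D, F and G they numbered 439, 916, 1016, 465, 658 and 571.

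PSME4, the activator that works on its own as a single large protein, was the other gene besides PSMB10 that rose in antral granulosa. It read 9.10, 9.17 and 9.28 before LH and 9.84, 9.84 and 9.80 after, with a gap of over 0.5 between the groups. The rise was 0.64 ± 0.16 (adjusted p 0.00674, limma). Its changes in membrane granulosa and theca were 0.33 ± 0.16 and 0.32 ± 0.16, not called. PSMF1, an inhibitor of the core, had changes of 0.24, -0.04 and -0.23 in membrane granulosa, antral granulosa and theca, and PSME3IP1 of 0.18, -0.19 and -0.02. None was called.

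**Figure D4:**
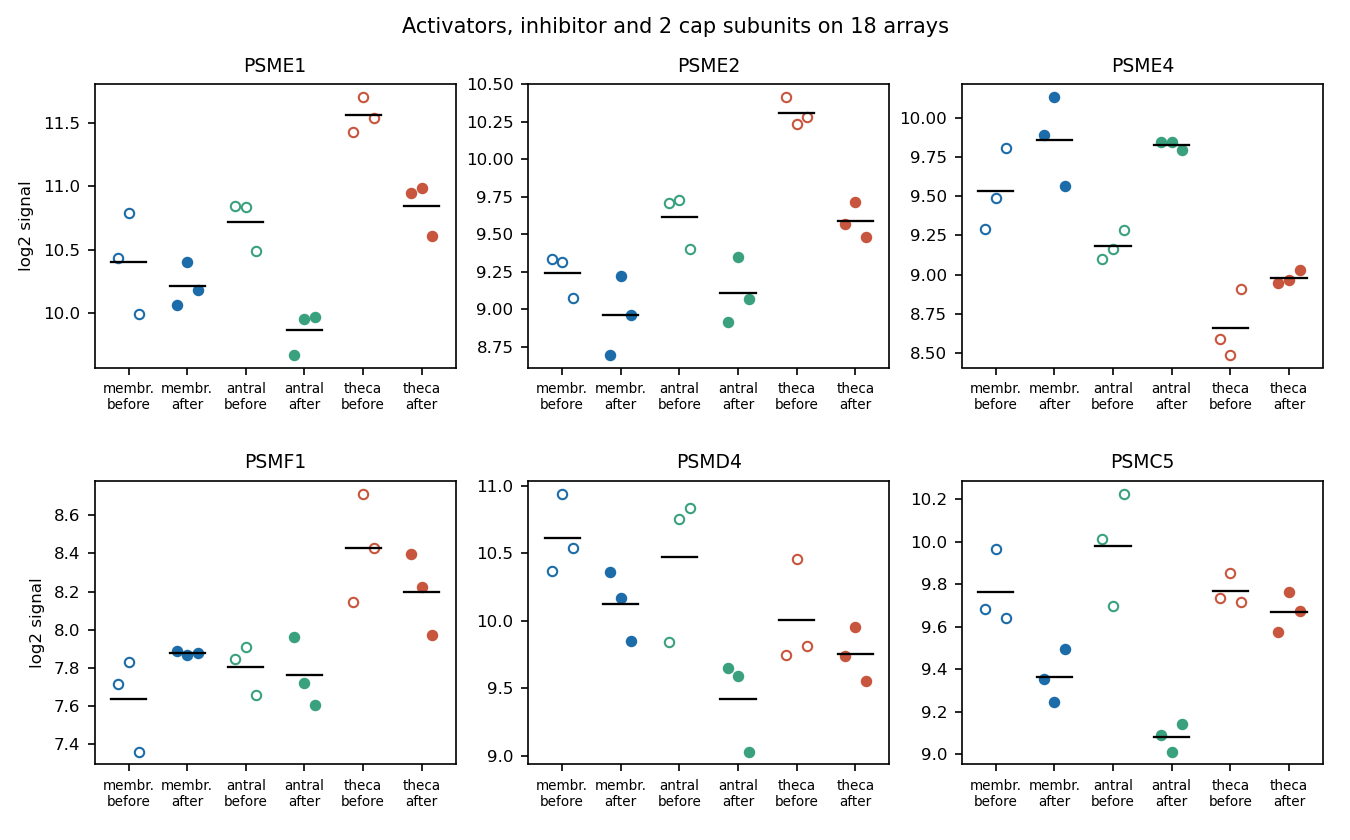
Log2 signal on each of the 18 arrays (points: open before LH, filled after; within a group from left to right in alphabetical order of cows; bars: group means of n = 3) of the activators PSME1, PSME2 and PSME4, the inhibitor PSMF1 and the cap subunits PSMD4 and PSMC5. PSME4 is lowest in theca and higher after LH in antral granulosa, whereas PSME1 and PSME2 are highest in theca before LH; each panel has its own scale.

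Between cell populations of the same follicles, the immunoproteasome genes, PSME1 and PSME2 separated theca from granulosa before LH. After LH PSMB10 was not called against either granulosa population. No constitutive core gene was called between theca and membrane granulosa at either stage. Before LH 6 members were higher and 3 lower in theca than in membrane granulosa, against 21.1% and 19.3% of all genes. The 6 were PSMB8 (2.71 ± 0.20, 6.56-fold), PSMB9 (2.51 ± 0.24, 5.69-fold), PSMB10 (2.21 ± 0.18, 4.63-fold), PSME1 (1.15 ± 0.15), PSME2 (1.07 ± 0.11) and PSMF1 (0.79 ± 0.14). Their adjusted p values in limma ran from 3.2e-06 to 0.000646, and every theca array lay above every membrane granulosa array. The 3 that were lower in theca were PSME4 (-0.86 ± 0.13), PSMD4 (-0.61 ± 0.17) and PSMC1 (-0.34 ± 0.12). None of the 13 core genes was called, and their median difference was -0.08.

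After LH 5 members were higher and 1 lower in theca than in membrane granulosa, against 15.7% and 15.7% of all genes. PSMB9 stood at 1.68 ± 0.24, PSMB8 at 1.20 ± 0.20, PSME1 at 0.63 ± 0.15, PSME2 at 0.63 ± 0.11 and PSMC3 at 0.55 ± 0.15, while PSME4 stood at -0.88 ± 0.13. PSMB10, at 0.50 ± 0.18, was no longer called (adjusted p 0.0549, limma). Without cow A or cow B only 3 were called higher, and both PSME1 (0.117 and 0.0697) and PSMC3 (0.153 and 0.152) were lost. Over all probe sets, calls either way numbered 6187 with all cows, 2617 without A and 2467 without B. The calls of PSMB8, PSMB9, PSME2 and PSME4 held with any 1 cow left out. A second, dimmer probe set of PSMD6 was called lower (-0.68 ± 0.21, adjusted p 0.035, limma), while the first was not called.

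**Figure D5:**
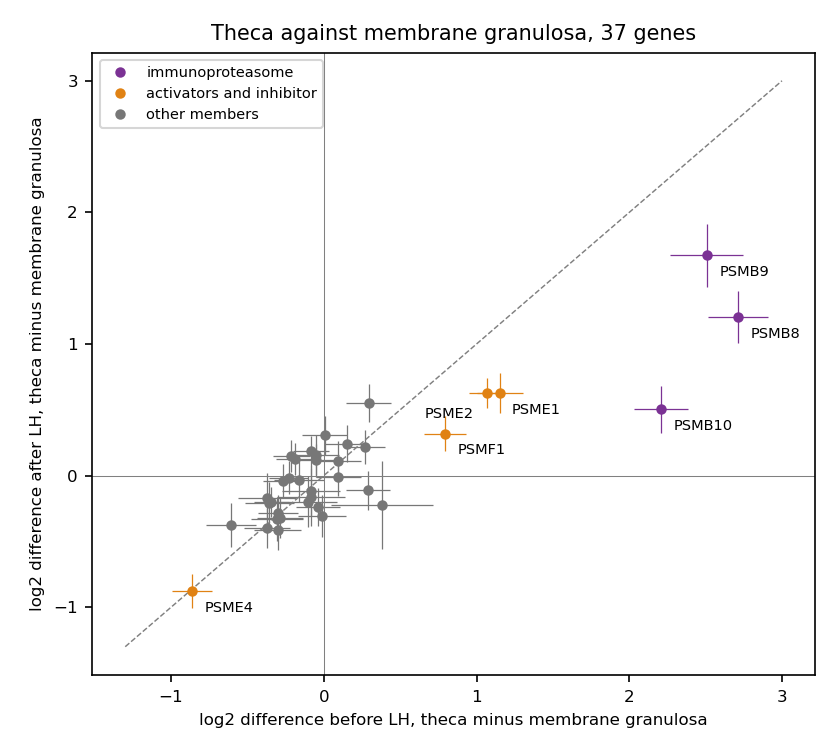
Log2 difference of theca minus membrane granulosa before LH (horizontal) and after LH (vertical) for each of the 37 genes, with SE bars from the within-cow fit (n = 3 cows a stage) and a dashed line where both are equal. The 3 immunoproteasome genes lie at 2.21 to 2.71 before LH and 0.50 to 1.68 after, below the line, and PSME4 lies at -0.86 and -0.88.

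Against antral granulosa, theca before LH was higher in 6 members and lower in 14, with 19.5% and 21.9% of all genes. The higher ones were again PSMB8 (2.77 ± 0.20), PSMB9 (2.74 ± 0.24), PSMB10 (1.81 ± 0.18), PSME1 (0.84 ± 0.15), PSME2 (0.70 ± 0.11) and PSMF1 (0.62 ± 0.14). The 14 lower ones held 6 of 13 core genes, 6 of 13 cap genes, PSME4 and PSME3IP1, with differences from -0.61 (PSMC1) to -0.34 (PSMB2). Their number fell to 3 without cow F, 5 without G and 9 without A or B, and to 9 without the cow as a block. Over all probe sets, calls either way numbered 8899 with all cows. They numbered 6175 without F, 6407 without G, 8130 without A, 8193 without B and 7220 without the block. After LH theca was higher in 8 members and lower in 1, against 22.2% and 20% of all genes. PSMB9 (2.32 ± 0.24), PSMB8 (1.70 ± 0.20), PSME1 (0.98 ± 0.15), PSMC3 (0.59 ± 0.15), PSMC5 (0.59 ± 0.15), PSME2 (0.48 ± 0.11), PSMF1 (0.43 ± 0.14) and PSMD5 (0.35 ± 0.12) were higher, and PSME4 (-0.84 ± 0.13) was lower. PSMB10, at 0.36, was not called. Higher calls numbered 5 without cow A and 4 without cow B. Over all probe sets, calls either way numbered 8706 with all cows, 5203 without A and 5090 without B. The second probe set of PSMC5 gave -0.44 ± 0.20 here, against the sign of the first, with an adjusted p of 0.106. Before LH it was called lower (-0.81 ± 0.20, 0.0073), unlike the first. That of PSMD6 was called lower before LH (-1.31 ± 0.21, 0.00047) and after it (-1.50 ± 0.21, 0.00021, limma), the first only before. Before LH those of PSMB2 (0.138) and PSMD4 (0.0696) were not called.

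Between the granulosa populations few members were called. Before LH 0 members were called either way between antral and membrane granulosa, against 1.05% of all genes higher and 1.53% lower. At an unadjusted p under 0.05, 12 members were higher in antral granulosa and 1 lower, against 10.5% and 9.99% of all genes. Without cow F 2 were called higher, with 279 probe sets called either way in all, against 426 with all cows. The median member difference was 0.24, and PSMB7 had the smallest adjusted p (0.54 ± 0.14, adjusted p 0.07, limma). After LH 0 were higher and 1 lower, against 1.16% and 2.25%. At an unadjusted p under 0.05, 1 member was higher and 4 lower, against 10.3% and 13.2% of all genes. PSMD4 was the one called, at -0.70 ± 0.17 (0.0445). That call held without cow D and without cow G, where 2 were called, and was lost without A (0.279), B (0.187), C (0.13) or F (0.0628), and without the cow as a block (0.19). Over all probe sets 721 were called with all cows, 5 without A, 0 without B, 280 without C, 563 without F and 297 without the block.

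Markers of other cells were set beside the immunoproteasome difference between theca and granulosa. Over all genes 21.1% were called higher in theca than in membrane granulosa before LH and 15.7% after, and 19.3% and 15.7% lower. Of 19 leukocyte markers 11 were higher in theca than in membrane granulosa before LH and 7 after, and 0 were lower. Their summed signal was 3505 to 8104 in theca before LH and 3034 to 6996 after. In membrane granulosa it was 980 to 1350 before and 1253 to 2089 after, in antral granulosa 769 to 3238 and 1246 to 1531. ITGAM was below 4.62 on every array, and CD3D was below it in each group except theca before LH. Of 9 endothelial markers 8 were higher in theca at both stages, and KDR was below 4.62 in every group. Of 6 fibroblast markers 6 were higher in theca than in membrane granulosa before LH and 5 after, with summed signals of 28860 to 39830 and 36340 to 46730 in theca against 2373 to 8650 and 6418 to 19470. Of 7 smooth muscle and pericyte markers 6 were higher before LH and 7 after, at 11700 to 21400 and 7218 to 12590 in theca against 753.5 to 1708 and 656.9 to 2320. PDGFRB was below 4.62 in every group except theca after LH. Of 3 red cell markers 0 were called between these populations. The part of these cells in the theca levels was not tested. From before to after LH 1 of the 19 leukocyte markers rose in membrane granulosa, 0 in antral granulosa and 1 in theca, and none fell. The share of all genes called higher was 13.1%, 12.6% and 2.34%. Cow F had the highest theca leukocyte signal before LH, 8104 against 3505 and 3892 in cows D and G. Its theca PSMB10 was also the highest, whereas its PSMB8 was the lowest of the 3.

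Genes of antigen presentation and the interferon response, taken from lists outside the member rule, were set beside the immunoproteasome. In the RefSeq table of ARS-UCD2.0, the peptide transporter gene TAP1 lies directly between PSMB8 and PSMB9, and PSME1 and PSME2 have 1 gene between them. Of 11 measured genes of MHC class I presentation, 0 were called after LH in any of the 3 populations. Over all genes 13.1% were called higher and 12.9% lower in membrane granulosa, 12.6% and 16.1% in antral granulosa, and 2.34% and 2.85% in theca. ERAP2, 1 of the 11, was below 4.62 in each group except theca before LH. Before LH 6 of the 11 were higher in theca than in membrane granulosa, among them the class I light chain B2M (1.77 ± 0.22), TAP1 (1.32 ± 0.18) and TAP2 (1.02 ± 0.21). The chaperones CALR, PDIA3 and CANX were lower, so that 6 and 3 of 11 stood beside 21.1% and 19.3% of all genes. After LH 3 were higher (BOLA, TAP1 and B2M) and 0 lower, beside 15.7% of all genes each way. Of 21 interferon-response genes 6 rose in membrane granulosa and 6 in antral granulosa, where 13.1% and 12.6% of all genes were called higher, and 0 fell. JAK1, the kinase of interferon receptors, rose by 0.82 ± 0.14 and 1.07 ± 0.14, the transcription factor IRF9 by 1.27 ± 0.29 and 1.24 ± 0.29, and UBA7, the enzyme that activates the ubiquitin-like ISG15, by 1.30 ± 0.23 and 1.28 ± 0.23. In theca IFNGR2 rose by 0.72 ± 0.18, and the interferon-induced GTPase GBP4 fell by 1.88 ± 0.21 (adjusted p 0.000105, limma). Before LH 14 of the 21 were higher in theca than in membrane granulosa and 0 lower, and after it 7 and 0, with 21.1% and 15.7% of all genes called higher. MX2 and IFNG were below 4.62 in every group, OAS1X in each group except theca before LH, and GBP4 in every granulosa group. The theca mean of GBP4 after LH, 4.85, was close to that limit.

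Genes that build, regulate or feed the proteasome were read from further lists. Of 6 assembly factors and cap subunits outside the rule, PSMG1 (-0.69 ± 0.16) and PSMG3 (-0.64 ± 0.15), chaperones of core assembly, fell in antral granulosa. PSMG2, the partner of PSMG1, rose in membrane granulosa (0.59 ± 0.18), and 0 of 6 were called in theca. Of 13 regulators and shuttles, 4 fell and 1 rose in antral granulosa, and 2 fell and 1 rose in membrane granulosa. The share of all genes was 16.1% lower and 12.6% higher in antral granulosa and 12.9% and 13.1% in membrane granulosa. NFE2L1, the transcription factor known to induce proteasome subunit genes, fell by 1.11 ± 0.17 in membrane granulosa (adjusted p 0.000164) and 0.89 ± 0.17 in antral granulosa (0.00104, limma). BAG6, a chaperone for proteins bound for degradation, rose by 0.65 ± 0.17 and 1.04 ± 0.17. In theca 0 of the 13 were called, against 2.85% of all genes called lower and 2.34% higher. Of 16 ubiquitin and conjugation genes, 2 rose in membrane granulosa, 1 in antral granulosa and 0 in theca, and 0 fell in any population. The share of all genes called higher was 13.1%, 12.6% and 2.34%. UBA1, the main ubiquitin-activating enzyme, rose in membrane granulosa (0.65 ± 0.21) and antral granulosa (0.97 ± 0.21), and UBE2D2 in membrane granulosa (0.49 ± 0.11).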

How the data were processed

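RNA of 18 samples was read on Affymetrix bovine 3' arrays. The authors deposited a log2 signal for each probe set (2.29 to 14.9), made with RMA in Partek 6.5 per the submitters' processing notes. Its settings are not given in the sources used here. Array medians lay between 5.74 and 5.86, so the arrays did not share 1 distribution as deposited. Any scaling between arrays would hide a shift of most genes together.

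The 112 control probe sets were left out, and the other 24016 entered lmFit and eBayes of limma 3.58.1 (R 4.3.3), with Benjamini-Hochberg adjustment and a threshold of 0.05. LH contrasts used a mean for each of the 6 groups. Contrasts of populations and of LH effects added the cow as a fixed block. Deviations from the group means correlated at -0.02 to 0.69 between arrays from 1 cow, over 0.1 in 17 of 18 pairs, and each cow gave all 3 populations, which pairs them. Replicate numbers shared by different cows did not pair them (-0.18 to 0.23). Arrays of a group correlated at 0.97 to 0.99, and 0 were identical. Of the probe sets, 86 with several symbols and 10638 with none were not named. The annotation can be old, and all 37 members kept their symbol in the RefSeq table. Probe set coordinates and sequences were not used here.

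The members and lists were chosen with earlier results of these data known. Named genes are all members of the immunoproteasome and activator classes, PSMB5, PSMB6 and PSMB7, for each contrast the 5 largest called rises and falls, members of sets of 5 or fewer, and from each outside list up to 4 genes with the smallest adjusted p. Further members are named to account for all of them. Marker lists are those of granulosa, theca, leukocytes, endothelium, fibroblasts, smooth muscle with pericytes, and red cells. Alternatives were quantile normalization, median centring, leaving out dim probe sets, averaging a gene's probe sets, eBayes with trend and robust, a fit of just the arrays compared, other blocks, and omission of each cow. Figures were drawn with matplotlib 3.10.9 in Python 3.11.15.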

Additional observations from a re-analysis of the deposited data

Results flagged for a closer look

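In 2 comparisons the LH change of a member differed between cell populations by a test of the difference itself. Theca minus membrane granulosa gave -1.71 for PSMB10 and -1.51 for PSMB8, where the gene rose in membrane granulosa and was not called in theca. Theca minus antral granulosa gave -1.45 for PSMB10 and -1.07 for PSMB8. In the same comparison, members with the smaller fall in theca gave 0.84 for PSMB3, 0.80 for PSMC5, 0.80 for PSMD4, 0.61 for PSMD5 and 0.58 for PSMB2. The adjusted p of limma was 0.0012 for PSMB10 against membrane granulosa and ran up to 0.0465 for PSMD4 against antral granulosa. A dimmer second probe set of PSMC5 gave 0.37 with an adjusted p of 0.515 for its difference, and the second probe sets of PSMB2 and PSMD4 gave 0.68 (0.0677) and 0.87 (0.098).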

How the results depend on the processing

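In all contrasts together 88 member values were called. Over 14 alternatives they kept their side of the threshold in 1024 of 1232 cases, were no longer called in 208 and reversed in 0. The fall of 21 members in antral granulosa stayed between 14 and 21, and the 2 differences against membrane granulosa stayed 2. For LH in membrane granulosa, quantile normalization gave 8 lower, and only the arrays compared gave 2 lower and 1 higher. For theca against membrane granulosa, median centring and averaged probe sets each gave 5 lower before LH. After it, lower calls were 2 with quantile normalization, averaged probe sets or trend and robust, and 3 with centring or the cow as a random block. For antral against membrane granulosa, quantile normalization and averaging gave 1 higher before LH. After it, lower calls were 0 with quantile normalization, centring, averaging, a random block or no block, and 3 with only the arrays compared. For theca against antral granulosa, only the arrays compared gave 7 lower before LH, and after it lower calls were 2 with quantile normalization, centring or a random block and 3 with averaging. Centring moved the median of all genes from -0.08 to -0.17 before LH and from -0.05 to -0.11 after.

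Without the cow as a replicate block, theca against antral granulosa gave 9 lower before LH, and the difference of their LH changes 1 higher and 1 lower; only the arrays compared gave 1 higher there. With the replicate number as a block in the LH contrasts, 20 members were lower in antral granulosa and PSMC5 in membrane granulosa was not called (adjusted p 0.0576). PSMA1 in antral granulosa also lost its call (0.0581).

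With each cow left out in turn, LH calls ranged from 1 to 5 higher and 2 to 6 lower in membrane granulosa and 0 to 2 lower in theca. Calls over all probe sets also changed in these fits and are given with the member counts above. Theca against membrane granulosa after LH ranged from 3 to 6 higher and 1 to 2 lower. Antral against membrane granulosa ranged from 0 to 2 higher before LH and 0 to 2 lower after. Theca against antral granulosa ranged from 3 to 12 lower before LH, 4 to 9 higher and 1 to 2 lower after, and 0 to 3 higher and 1 to 2 lower for the difference of LH changes. Uncalled changes near 0 turned sign: PSME1 in membrane granulosa ranged from -0.39 to 0.00053, PSMF1 in antral granulosa from -0.14 to 0.036 (0.021 with quantile normalization), and PSMB10 in theca from -0.38 to 0.010. The cause of these shifts was not tested.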
